A study of Mus musculus with 34 samples.

Results

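Glycolysis, the mitochondrial entry of pyruvate and the tricarboxylic acid (TCA) cycle were followed in preimplantation mouse embryos through 36 genes of central carbon metabolism. The members were listed by symbol, with earlier results of these data known, and no measured value enters the rule itself. They comprised 2 glucose transporters, 9 genes of upper glycolysis, 5 of lower glycolysis, 3 of lactate and monocarboxylate handling, 7 of mitochondrial pyruvate entry and 10 of the TCA cycle. The last group also counts Mdh1, the cytosolic malate dehydrogenase, beside the mitochondrial Mdh2. All 36 were found among the 49686 gene symbols listed for zygotes and for late 2-cell embryos and among the 51734 listed for blastocysts.

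Every embryo had been injected as a zygote with mRNA for the checkpoint kinase CHK1, either wild type (WT) or the R442Q mutant, so the control embryos also carried injected CHK1 mRNA. Uninjected embryos were not part of the comparisons. The groups were 5 WT and 6 R442Q zygotes and 4 WT and 5 R442Q late 2-cell embryos without inhibitor, and 7 WT and 7 R442Q blastocysts that had all been cultured in KSOM medium with a CHK1 inhibitor at 30 nM. Genotype here means the kind of mRNA injected. Blastocysts therefore differ from the earlier embryos in stage and in inhibitor at once, and the 2 cannot be told apart. Each library was made from 1 whole embryo after removal of the zona pellucida, by SMART-seq2 and Tn5 fragmentation, and the strain and the litters of origin were not given in the sources used here. P-values thus measure the spread between these embryos.

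Glycolysis splits glucose into pyruvate in the cytosol. Lactate dehydrogenase interconverts pyruvate and lactate, the mitochondrial pyruvate carrier brings pyruvate into mitochondria, and the pyruvate dehydrogenase complex turns it into acetyl-CoA, which citrate synthase passes into the TCA cycle. The cleavage-stage mouse embryo is known to depend on pyruvate and lactate from its medium and to take up little glucose, whereas the blastocyst uses glucose. Several steps are carried out by alternative isozymes encoded by separate genes, among them the hexokinases, the phosphofructokinases and the lactate dehydrogenases.

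The stretches before the RefSeq starts of Ldha and Ldhb are printed because these 2 lactate dehydrogenase genes went opposite ways between stages. They were chosen after their values were seen. Each is the 250 bases before the RefSeq gene start in GRCm38.p6, 5′ to 3′ on the gene's strand, with matches to ACGTG (or CACGT on the other strand) and GGGCGG (or CCGCCC) in capitals. The Ldha window lies at chr7:46845554-46845803 on the + strand. It is inside the Ldha gene of the GENCODE annotation, which starts at 46841475, and overlaps no annotated exon. The Ldhb window lies at chr6:142507958-142508207 on the - strand, directly before the GENCODE gene, which ends at 142507957.
Ldha: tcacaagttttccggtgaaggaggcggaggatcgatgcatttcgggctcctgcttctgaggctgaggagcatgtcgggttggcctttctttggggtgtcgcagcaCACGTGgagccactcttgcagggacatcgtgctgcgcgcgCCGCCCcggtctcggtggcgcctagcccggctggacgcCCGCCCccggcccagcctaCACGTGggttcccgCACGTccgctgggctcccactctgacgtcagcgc
Ldhb: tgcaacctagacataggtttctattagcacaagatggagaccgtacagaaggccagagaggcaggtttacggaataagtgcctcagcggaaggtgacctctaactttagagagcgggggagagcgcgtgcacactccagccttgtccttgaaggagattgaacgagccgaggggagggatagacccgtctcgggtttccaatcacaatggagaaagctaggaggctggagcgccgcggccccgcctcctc

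ACGTG is the core that hypoxia-inducible factors bind, it is contained in the E-box CACGTG, and GGGCGG is a GC box. Counting both strands, the Ldha window held 5 matches to ACGTG, of which 4 come from 2 CACGTG sites that read alike on both strands, and 2 GC boxes. No match to these motifs was present in the Ldhb window. Windows of the same length were available for 34 members, taken at the RefSeq start nearest to the GENCODE gene start. ACGTG occurred in 11 of the 34 (32.4%) and in 16.6% of all 32851 windows, CACGTG in 4 (11.8%) against 6.02%, and GGGCGG in 22 (64.7%) against 32.7%. TATAAA occurred in 0 of the 34 and in 12.4% of all windows. These shares are descriptions of the letters in the windows and no test was made of them.

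The stage of the embryos was read from marker lists in FPKM, a fragment count that the authors had scaled for gene length and sequencing depth. Summed FPKM of 10 blastocyst markers was at least 1478 in each blastocyst and at most 209 in each earlier embryo. Summed FPKM of 7 oocyte and zygote markers was 3412 to 6508 in zygotes and at most 4.54 in blastocysts. In late 2-cell embryos it was 1223 to 3140 in WT and 1657 to 6906 in R442Q. R442Q late 2-cell embryos thus overlapped zygotes on this list. Markers of cumulus cells, the somatic cells that surround the egg, summed to at most 3.57 FPKM outside the late 2-cell stage and to at most 23.7 within it. In late 2-cell embryos Tnfaip6 was the only 1 of these 10 cumulus genes with a mean of 1 FPKM or more, at 2.52 ± 3.10 FPKM (SD, n = 4) in WT and 7.36 ± 7.16 (SD, n = 5) in R442Q, while Inhba and Fshr were at 0 in both groups. Total counts were 7183632 to 11296522 per zygote and 5727956 to 8916343 per late 2-cell embryo, and the depth of the blastocysts in counts is unknown. Chek1 FPKM, which includes the injected mRNA of either kind, was 6034 ± 2113 (SD, n = 5) in WT and 6321 ± 602 (SD, n = 6) in R442Q zygotes, so it does not by itself check the genotype labels. The 2 libraries with the fewest genes at an FPKM of 1 or more were R442Q blastocyst 7 (8189 genes) and WT blastocyst 6 (9852), against 10714 to 12191 in the other blastocysts, and R442Q late 2-cell embryo 3 had the most (16211).

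Levels of the members changed their order from stage to stage. In WT zygotes Ldhb, the heart-type subunit of lactate dehydrogenase, alone made up 64.1% of the members' summed mean FPKM. The next were citrate synthase Cs (204 ± 20.3 FPKM; SD, n = 5), the pyruvate kinase gene Pkm (112 ± 29.0) and the pyruvate carrier subunit Mpc1 (107 ± 16.6). In WT late 2-cell embryos mitochondrial malate dehydrogenase Mdh2 led with 326 ± 48.0 FPKM (SD, n = 4), followed by Mpc1 (279 ± 41.4), Pkm (243 ± 32.3) and Mpc2 (172 ± 27.7). WT blastocysts were led by the glyceraldehyde-3-phosphate dehydrogenase gene Gapdh (1177 ± 213 FPKM; SD, n = 7), Mdh2 (885 ± 89.3), the aldolase gene Aldoa (835 ± 124) and the succinyl-CoA ligase subunit Suclg1 (433 ± 50.8). The gap between Mdh2 and Aldoa was smaller than either SD. In R442Q embryos the leading member was the same in zygotes and late 2-cell embryos, and in blastocysts Mdh2 (876 ± 98.8) and Gapdh (875 ± 344) stood level.

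Summed by role, levels in WT embryos did not all run the same way. The 3 genes of lactate and monocarboxylate handling summed to 2223 ± 143 FPKM in zygotes, 253 ± 79.7 in late 2-cell embryos and 78.9 ± 67.6 in blastocysts. The 9 genes of upper glycolysis summed to 172 ± 18.8, 191 ± 94.2 and 1357 ± 224 FPKM at the same stages. For the 5 genes of lower glycolysis the sums were 220 ± 37.1, 573 ± 114 and 1797 ± 295 FPKM. Mitochondrial pyruvate entry summed to 309 ± 36.9, 694 ± 65.9 and 747 ± 94.5 FPKM, and the TCA cycle to 491 ± 7.27, 580 ± 77.4 and 2334 ± 192 FPKM. The highest mean over the 3 stages was in blastocysts for 23 of the 36 members, in late 2-cell embryos for 8 and in zygotes for 5 (Slc2a1, Pfkm, Ldhb, Cs and Dlst). The 3 FPKM tables were normalised separately, so levels set across stages are a description. Rescaling each embryo's FPKM to 1 common sum gave 20, 9 and 7. In whole embryos, a cell type that is rarer and one with less RNA per cell cannot be told apart.

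**Figure D1:**
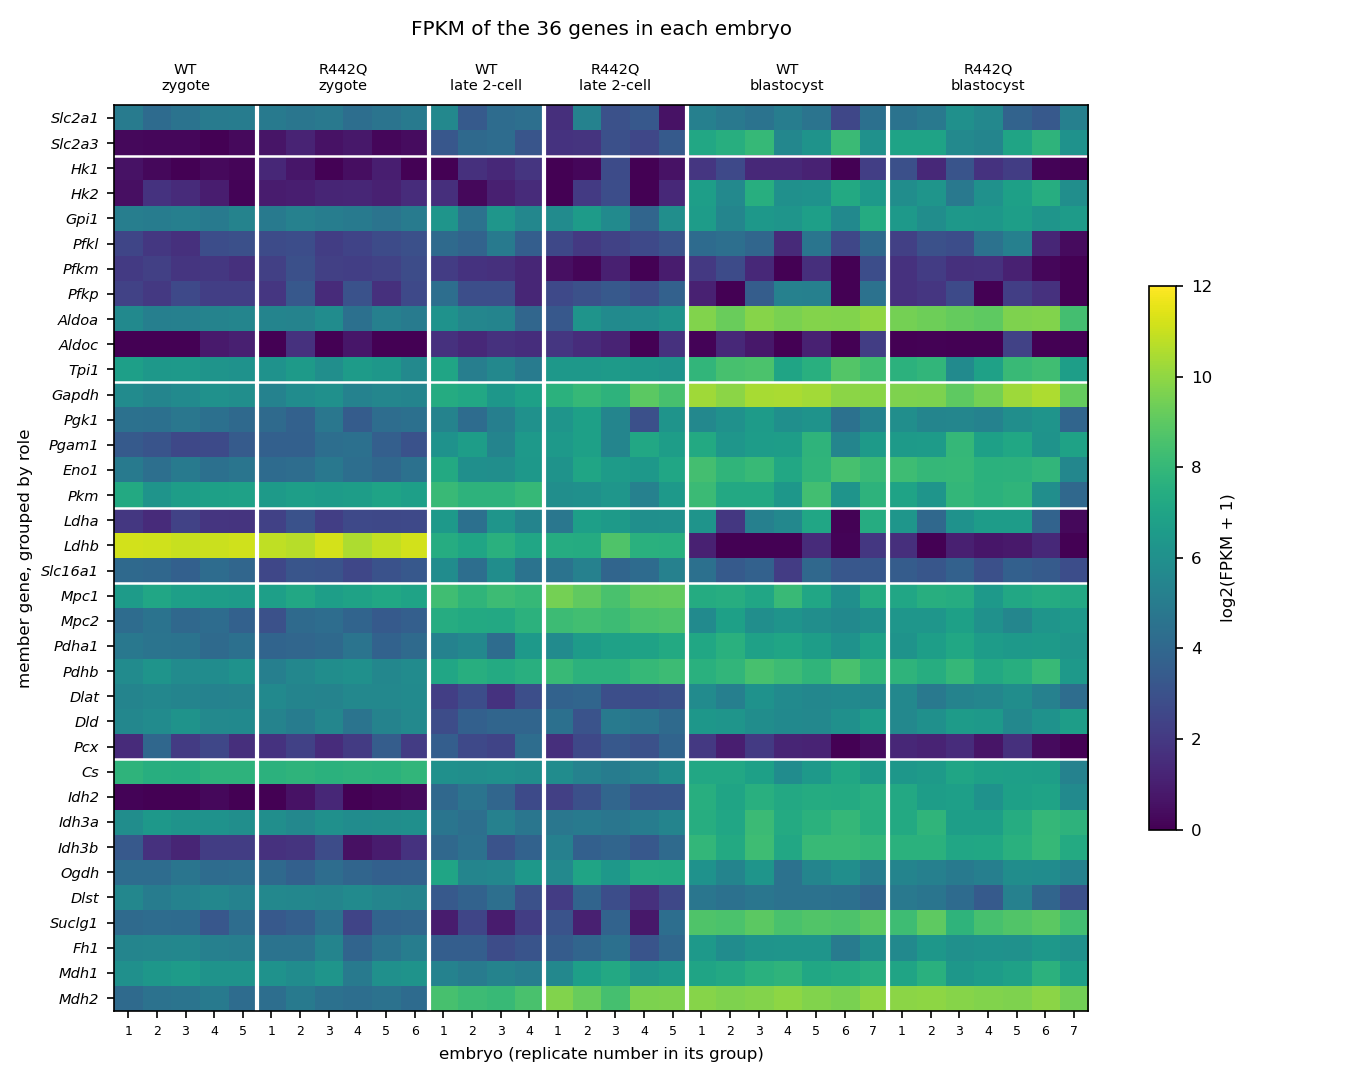
Each row is 1 of the 36 genes, grouped by role, and each column 1 embryo, with colour showing log2(FPKM + 1). Ldhb is bright in all zygotes and dark in all blastocysts, while Aldoa and Suclg1 are brightest in blastocysts.

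Isozyme shares in FPKM are given next as a description. Ldha encodes the muscle-type subunit of lactate dehydrogenase and Ldhb the heart-type subunit. WT zygotes held Ldhb at 2205 ± 143 FPKM (SD, n = 5) and Ldha at 2.79 ± 0.854, so that Ldhb made up 99.9% of the pair's FPKM, with a range of 99.8% to 99.9%. In WT late 2-cell embryos the Ldhb share was 66.5%, 86.7%, 72.1% and 76.4%, and in the 5 R442Q embryos of that stage 86.5%, 59.8%, 82.0%, 75.8% and 75.2%. The 2 genotypes overlapped there, and every late 2-cell embryo lay below every zygote. WT blastocysts had a median Ldhb share of 1.32%, with 64.3% in WT blastocyst 6 and at most 1.63% in the other 6. The 2 genes of that embryo summed to only 0.14 FPKM, since its Ldha stood at 0.05. Ldha was also near 0 in R442Q blastocyst 7 (0.19 FPKM) and spanned 2.81 to 170 FPKM in the other 12. WT blastocyst 6 and R442Q blastocyst 7 were also the 2 with the fewest detected genes, and the part of this in their Ldha values was not tested.

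Among the glucose transporters, the share of Slc2a3 (GLUT3) over Slc2a1 (GLUT1) went from 0.572% ± 0.276 (SD, n = 5) in WT zygotes to 39.2% ± 21.0 (n = 4) in late 2-cell embryos and 80.8% ± 13.2 (n = 7) in blastocysts. R442Q embryos had 2.30% ± 1.56 (n = 6), 47.8% ± 32.3 (n = 5) and 72.7% ± 21.0 (n = 7), and at the late 2-cell stage their values ran from 6.03% to 95.2%. Hexokinase carries out the first step of glycolysis. Hk2 made up 97.0% ± 3.16 of the summed Hk1 and Hk2 FPKM in WT blastocysts. Its level there was 102 ± 49.8 FPKM, against 1.12 ± 0.953 in zygotes and 1.285 ± 0.830 in late 2-cell embryos. In R442Q late 2-cell embryos 1 and 4 both Hk1 and Hk2 were listed at 0. At these low levels the shares before the blastocyst stage began at 8.64% and reached the whole, and no order was read from them.

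Phosphofructokinase, the main control point of glycolysis, has liver (Pfkl), muscle (Pfkm) and platelet (Pfkp) forms. Pfkl made up 64.9% ± 17.2 (SD, n = 4) of their summed FPKM in WT and 37.8% ± 8.66 (n = 5) in R442Q late 2-cell embryos, while Pfkp made up 26.2% ± 16.9 and 58.9% ± 7.81. Pfkm was the smallest share at that stage in both, at 8.95% ± 2.33 and 3.31% ± 2.85. In WT blastocysts the Pfkl share ran from 4.22% to 99.6%, wider than any difference between groups. Aldoa stayed the main aldolase at 99.1% ± 1.23 in WT zygotes, 94.2% ± 3.94 in late 2-cell embryos and 99.9% ± 0.140 in blastocysts, and the brain form Aldoc did not exceed 4.08 FPKM in a blastocyst.

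**Figure D2:**
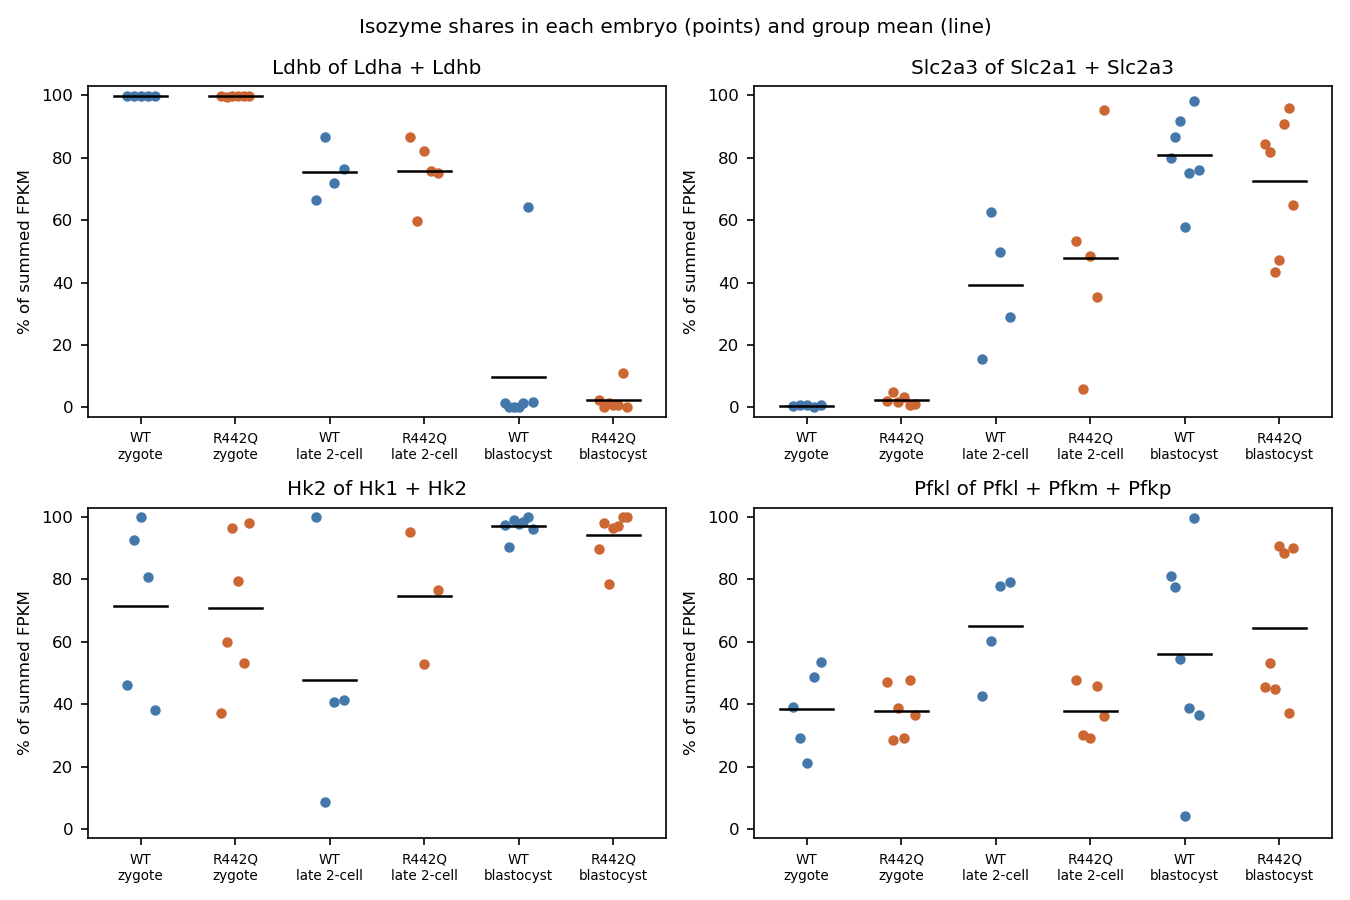
Points are single embryos and lines group means of the share of 1 isozyme in the summed FPKM of the members of its family. Shares are in percent, for 4 families and 6 groups. The Ldhb share of Ldha and Ldhb falls from about 99.9% in zygotes to a median of 1.32% in WT blastocysts with 1 embryo at 64.3%. The 2 R442Q late 2-cell embryos without Hk1 or Hk2 signal have no point in the hexokinase panel.

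Between zygote and late 2-cell, the change was tested on counts in 1 model of the 4 groups with edgeR's quasi-likelihood test, in which the 2 stages came from separate tables. A gene counted as called at a Benjamini-Hochberg adjusted p under 0.05. In WT embryos 25 of the 36 members were called (69.4%), 16 higher and 9 lower, against a background of 61.2% of the 16199 genes tested (36.2% higher and 25.0% lower). In R442Q embryos 23 were called (63.9%), 14 higher and 9 lower, against 65.1% (35.3% higher and 29.8% lower). A share near the background says nothing particular about these genes. The median log2 change over the members was 0.96 in WT and 0.46 in R442Q, beside 0.34 and 0.22 over all genes tested.

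By role, the directions were mixed. Of the 5 lower glycolysis genes, 4 rose in WT (Gapdh, Pgam1, Eno1 and Pkm), and none fell. Of the 10 genes grouped with the TCA cycle, 6 fell in WT (Cs, Idh3a, Dlst, Suclg1, Fh1 and the cytosolic Mdh1) and 3 rose (Idh2, Idh3b and Mdh2). Mitochondrial pyruvate entry was split: the carrier subunits Mpc1 and Mpc2 and the E1 beta subunit Pdhb of pyruvate dehydrogenase rose, whereas the E2 subunit Dlat and the E3 subunit Dld fell. Upper glycolysis had 3 of 9 rising in WT (Hk1, Pfkl and Pfkp), and the other 6 did not pass the test. Both genotypes had 12 members rising and 7 falling in common, and 8 members passed in neither (Slc2a1, Hk2, Gpi1, Aldoa, Aldoc, Tpi1, Pcx and Ogdh). The share of all genes called alike in both genotypes was not counted, so nothing particular to the members was read from this. The 2 changes come from different embryos but share the model and its scaling.

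The largest rises in WT were those of Idh2, Slc2a3, Ldha, Mdh2 and Hk1. Values here are CPM, counts scaled to library size, with TMM scaling factors (trimmed mean of M values) estimated over both stages. Idh2, the mitochondrial NADP-dependent isocitrate dehydrogenase, was at 0.12, 0, 0, 0.14 and 0 CPM in the 5 WT zygotes and at 15.2, 34.9, 16.8 and 8.14 CPM in the 4 late 2-cell embryos. The groups were far apart, and 2 counts in all zygotes together stood against 520 in all late 2-cell embryos. Because of these low counts the size of the rise is given as a ratio of counts, scaled to library size, of 419, with an exact 95% interval of 115 to 3468 that covers counting error only. Slc2a3 stood at 1.08, 0.90, 1.003, 0.14 and 1.24 CPM in zygotes and 29.3, 61.6, 61.0 and 32.6 CPM in late 2-cell embryos, a log2 rise of 5.69 ± 0.58 (SE; edgeR adjusted p = 1.51e-08).

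Ldha rose from 3.95, 2.25, 5.89, 3.25 and 3.28 CPM to 102, 25.6, 92.1 and 58.8 CPM, by 4.22 ± 0.41 on the log2 scale (SE; edgeR adjusted p = 8.13e-09). Mdh2, the last enzyme of the cycle, went from 20.8, 26.9, 28.2, 36.1 and 21.5 CPM to 384, 360, 310 and 429 CPM (log2 3.80 ± 0.27 SE; edgeR adjusted p = 7.85e-11). For Slc2a3, Ldha and Mdh2 the lowest late 2-cell embryo exceeded the highest zygote. Hk1 was lower throughout, with at most 0.96 CPM in zygotes and 0, 8.25, 6.28 and 10.8 CPM in late 2-cell embryos, and 1 embryo at 0 made the groups overlap. Its call (edgeR adjusted p = 0.0248) was lost when WT zygote 2 or 3 or WT late 2-cell embryo 2 or 4 was left out (adjusted p up to 0.0639).

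The largest falls in WT were those of Ldhb, Dlat, Suclg1, Dld and Fh1. Ldhb fell from 2494, 2454, 2227, 2340 and 2527 CPM to 160, 145, 209 and 150 CPM, which is 14.5-fold (edgeR adjusted p = 1.43e-11). Dlat, the acetyltransferase of pyruvate dehydrogenase, was at 50.9, 63.7, 55.5, 49.7 and 57.2 CPM in zygotes and 8.14, 8.54, 6.85 and 7.48 CPM in late 2-cell embryos, 7.14-fold lower (edgeR adjusted p = 4.83e-08). Every late 2-cell embryo lay below every zygote for both genes. Suclg1, the alpha subunit of succinyl-CoA ligase, was 11.9 to 26.4 CPM in zygotes and 1.43 to 5.26 CPM in late 2-cell embryos (5.99-fold lower; edgeR adjusted p = 0.00159). Dld, the dihydrolipoamide dehydrogenase shared by several complexes, went from 106 to 162 CPM down to 11.5 to 32.7 CPM (5.36-fold), and the fumarase Fh1 from 74.1 to 114 CPM down to 11.6 to 27.6 CPM (4.99-fold). These 3 also did not overlap between stages.

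In R442Q embryos the 5 largest rises were those of Mdh2 (27.2-fold), Idh2 (22.3-fold), Mpc2 (19.9-fold), Ldha (12.7-fold) and Slc2a3 (10.7-fold). The 5 largest falls were those of Dlst (11.16-fold), Pfkm (10.3-fold), Ldhb (10.3-fold), Dlat (6.42-fold) and Cs (5.41-fold). The rise of Idh2 rests on 20 counts in all R442Q zygotes together, 11 of them in zygote 3, against 322 in the late 2-cell embryos. Its ratio of counts scaled to library size was 26.4, with an exact 95% interval of 16.8 to 43.8 that covers counting error only. The log2 rise was 4.48 with all embryos and 5.23 without R442Q zygote 3. Dlst encodes the succinyltransferase of the 2-oxoglutarate dehydrogenase complex. Its lowest, median and highest CPM were 113, 124 and 134 in the 6 R442Q zygotes, and the 5 late 2-cell embryos had 5.32, 24.4, 13.9, 4.76 and 7.32. Pfkm had 10.2, 11.8 and 16.4 CPM in R442Q zygotes and 1.06, 0.34, 2.46, 0 and 2.15 CPM in late 2-cell embryos. Mdh2 had 22.7, 26.7 and 38.3 CPM in R442Q zygotes and 992, 668, 326, 896 and 913 CPM in late 2-cell embryos. Embryo 3 was the lowest of these for Mdh2 and the only R442Q embryo within the WT range of 310 to 429.

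**Figure D3:**
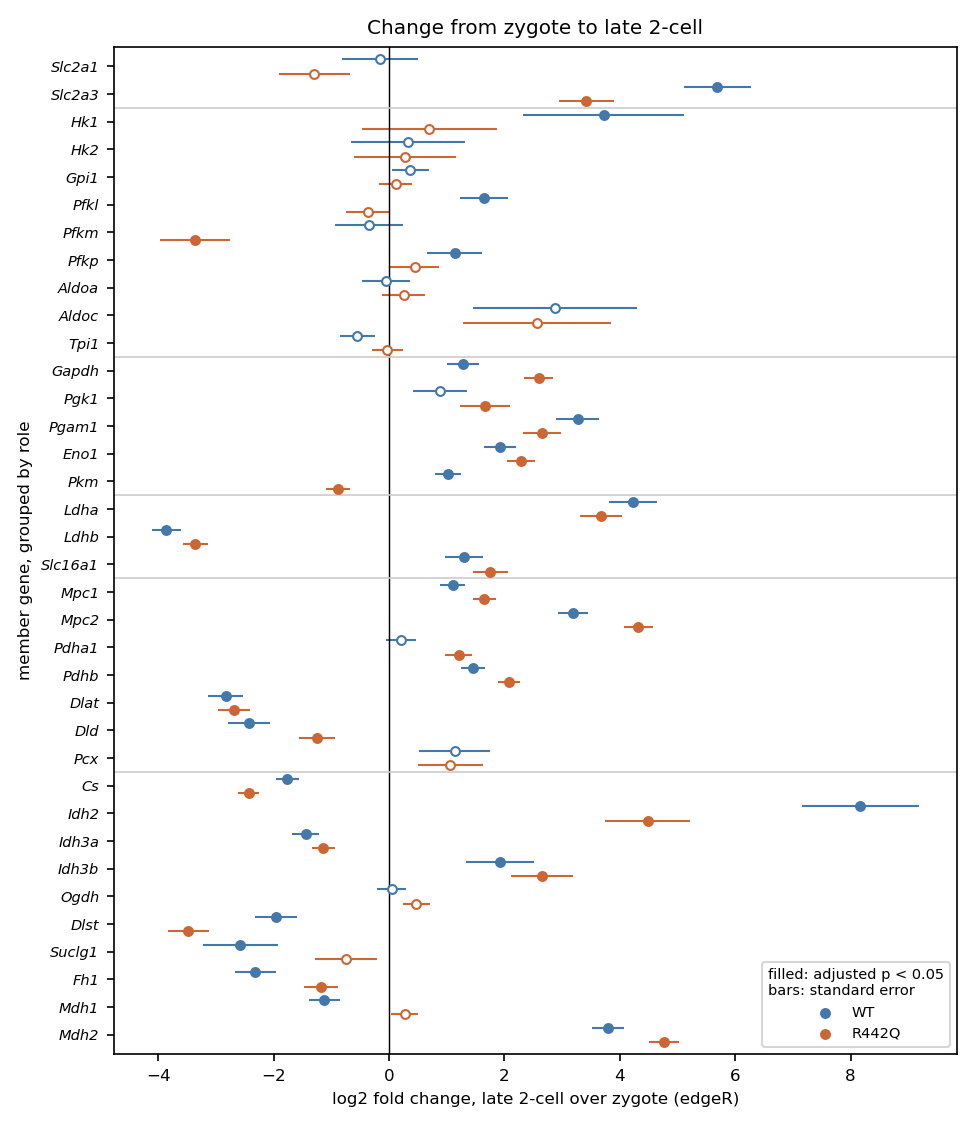
The horizontal axis is the log2 fold change from zygote to late 2-cell in counts and each row is 1 member, with WT and R442Q in separate colours, bars for the standard error and filled symbols for an edgeR adjusted p under 0.05. Ldhb lies near -3.86 in WT and -3.36 in R442Q, and Pkm is filled on opposite sides of 0, at 1.02 and -0.88.

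In zygotes, R442Q against WT gave 4 called members of the 33 tested, Pfkm and Pgam1 higher and Slc16a1 and Ogdh lower. That is 12.1%, beside a background of 13.2% of the 12420 genes tested (6.30% higher and 6.92% lower), so it was no more than among genes at large. The groups did not overlap for 2 members, Pfkm and Slc16a1, beside 8.71% of all genes. Hk1, Aldoc and Idh2 were too low to be tested. The median log2 difference over the tested members was -0.05 and over all genes 0.01. By role, 0 of 2 glucose transporters, 1 of 7 genes of upper glycolysis, 1 of 5 of lower glycolysis, 1 of 3 of lactate and monocarboxylate handling, 0 of 7 of pyruvate entry and 1 of 9 of the TCA cycle were called. At an unadjusted p under 0.05 there were 11 members (33.3%), beside 27.1% of all genes.

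Slc16a1 (chr3:104638668-104658462, GRCm38), which encodes the monocarboxylate transporter MCT1 that carries lactate and pyruvate across the plasma membrane, had 67.4, 60.0, 48.7, 75.5 and 62.8 CPM in the WT zygotes. The 6 R442Q zygotes had a lowest of 22.5, a median of 32.9 and a highest of 38.6 CPM. No R442Q zygote reached the lowest WT value. The difference was -1.02 ± 0.17 on the log2 scale (SE; edgeR adjusted p = 0.00103), 2.02-fold lower, and it passed whichever zygote was left out. Pfkm (chr15:98092589-98132451) had 8.17, 9.42, 6.60, 7.29 and 5.65 CPM in WT and a lowest of 9.64, a median of 11.4 and a highest of 15.6 in R442Q zygotes. Its groups were also apart, by a narrow margin, with a log2 difference of 0.71 ± 0.22 (SE; edgeR adjusted p = 0.0449).

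Pgam1 (chr19:41911923-41918660), the phosphoglycerate mutase, had 15.3, 11.6, 8.15, 9.14 and 16.5 CPM in WT and a lowest of 12.1, a median of 21.6 and a highest of 36.3 CPM in R442Q zygotes. Only the lowest R442Q embryo lay within the WT range, and the log2 difference was 0.99 ± 0.27 (SE; edgeR adjusted p = 0.0232). Ogdh (chr11:6291633-6356642), the E1 subunit of 2-oxoglutarate dehydrogenase, had 66.6, 63.3, 80.5, 67.3 and 73.6 CPM in WT and a lowest of 39.2, a median of 49.2 and a highest of 66.1 CPM in R442Q zygotes. R442Q zygote 3 alone reached into the WT range, and the log2 difference was -0.48 ± 0.14 (SE; edgeR adjusted p = 0.0276).

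Pfkm stayed past the threshold only when WT zygote 2 or R442Q zygote 3 or 4 was the embryo left out (adjusted p up to 0.102). Pgam1 was lost without WT zygote 2, 3 or 4 or R442Q zygote 4 (up to 0.0595), and Ogdh without WT zygote 3 or 5 or R442Q zygote 1, 2, 5 or 6 (up to 0.0673). With limma on log2(FPKM + 1) in place of counts Pfkm (limma adjusted p = 0.118), Pgam1 (0.0653) and Ogdh (0.0687) missed the threshold, and Pfkm also missed it in edgeR without a filter on low counts (adjusted p = 0.141) and with each library's trend with gene length and GC content removed (0.0539). All 4 were lost when zygotes and late 2-cell embryos shared 1 edgeR model, including Slc16a1 at an adjusted p of 0.103 with a log2 difference of -0.98. Stage markers also differed between the zygote groups. The 6 late 2-cell markers summed to 4.28 to 7.93 FPKM in WT and 17.5 to 90.9 in R442Q zygotes, and the 7 oocyte and zygote markers to 4822 to 6508 in WT and 3412 to 5046 in R442Q. Their part in the differences was not tested.

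At the late 2-cell stage 4 of the 36 members were called, Gapdh, Mpc2 and Mdh1 higher and Pkm lower in R442Q. That is 11.1%, beside a background of 4.18% of the 13883 genes tested, with 1.22% of all genes called higher and 2.95% lower. The groups did not overlap for 6 members, these 4 and Pfkl and Pfkm, beside 12.0% of all genes. The median log2 difference over the members was 0.35 and over all genes 0.07. At an unadjusted p under 0.05 there were 9 members (25.0%), the 4 called and Mdh2, Mpc1, Pdhb, Pfkl and Dlst, beside 21.0% of all genes.

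Pkm (chr9:59656368-59679375), which encodes pyruvate kinase of muscle type, the enzyme that yields pyruvate at the end of glycolysis, had 534, 455, 457 and 592 CPM in the WT and 148, 154, 155, 82.9 and 212 CPM in the R442Q late 2-cell embryos. The highest R442Q value was less than the lowest WT value by a wide margin. The log2 difference was -1.76 ± 0.30 (SE; edgeR adjusted p = 0.00990), 3.39-fold lower, and it passed whichever embryo was left out. In zygotes Pkm had 236 ± 65.9 CPM in WT (SD, n = 5) and 243 ± 28.6 in R442Q (SD, n = 6), a log2 difference of 0.04 ± 0.16 (SE; edgeR adjusted p = 0.904).

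Gapdh (chr6:125161715-125166467) had 180, 179, 96.9 and 136 CPM in WT and 260, 317, 228, 612 and 460 CPM in R442Q late 2-cell embryos, a log2 difference of 1.34 ± 0.36 (SE; edgeR adjusted p = 0.0488). Every R442Q embryo exceeded every WT embryo, but the R442Q values ranged widely. Mpc2 (chr1:165460637-165481214), a subunit of the mitochondrial pyruvate carrier, had 138, 139, 131 and 193 CPM in WT and 281, 297, 255, 342 and 373 CPM in R442Q, a log2 difference of 1.04 ± 0.27 (SE; edgeR adjusted p = 0.0454). Mdh1 (chr11:21556787-21572367), the cytosolic malate dehydrogenase of the malate-aspartate shuttle, had 55.0, 35.5, 65.6 and 50.7 CPM in WT and 80.3, 134, 184, 97.8 and 132 CPM in R442Q, a log2 difference of 1.28 ± 0.33 (SE; edgeR adjusted p = 0.0436). For all 3 genes the groups were separate.

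These 3 calls stood close to the threshold. Gapdh and Mpc2 passed only when R442Q late 2-cell embryo 3 was the one left out (otherwise adjusted p up to 0.148 and 0.159), and Mdh1 only without R442Q embryo 1 or 4 (up to 0.152). Removing each library's trend with gene length and GC content ended the calls of Mpc2 (edgeR adjusted p = 0.120) and Mdh1 (0.251, log2 difference 0.80), whereas Pkm (0.0246) and Gapdh (0.0481) passed. Without a filter on low counts Mpc2 (edgeR adjusted p = 0.117) and Mdh1 (0.0563) missed the threshold as well. Summed FPKM per library also separated the groups, at 712234 to 742246 in WT and 814376 to 976830 in R442Q, so that genotypes were compared in counts at this stage. Late 2-cell markers summed to 125 to 754 FPKM in WT and 420 to 1162 in R442Q, and cumulus markers, chiefly Tnfaip6 (0.10 to 7.06 and 2.45 to 19.7 FPKM), to 1.85 to 7.61 and 2.45 to 23.7. Of the 10 cumulus genes, 4 were at 0 in every WT embryo (Ptx3, Inhba, Fshr and Foxl2) and 3 in every R442Q embryo (Inhba, Fshr and Amh). Oocyte and zygote markers, 7 in number, summed to 1223 to 3140 FPKM in WT and 1657 to 6906 in R442Q late 2-cell embryos. Their part in the differences was not tested.

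Members that did not pass at this stage are given by role, as values. Of the 7 genes of pyruvate entry 6 had a positive log2 difference, among them Mpc1 at 0.98 ± 0.32 (SE; edgeR adjusted p = 0.0926), Pdhb at 0.60 ± 0.28 (0.235) and Pdha1 at 0.74 ± 0.35 (0.241). Mpc1, the partner of Mpc2 in the carrier, had 171, 142, 183 and 145 CPM in WT and 492, 278, 178, 285 and 345 CPM in R442Q, where embryo 3 lay within the WT range. Mdh2 had 400, 368, 324 and 445 CPM in WT and 1093, 704, 345, 944 and 1013 CPM in R442Q (log2 difference 1.09 ± 0.34 SE; edgeR adjusted p = 0.0818), and again embryo 3 alone lay within the WT range. Upper glycolysis had 6 of 9 differences below 0. Pfkl, with 44.4, 37.5, 72.5 and 34.4 CPM in WT and 20.1, 4.49, 14.1, 13.5 and 28.9 CPM in R442Q, did not overlap but missed the threshold (-1.54 ± 0.48 SE; edgeR adjusted p = 0.0840), and so did Pfkm (-2.23 ± 1.05; 0.245).

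**Figure D4:**
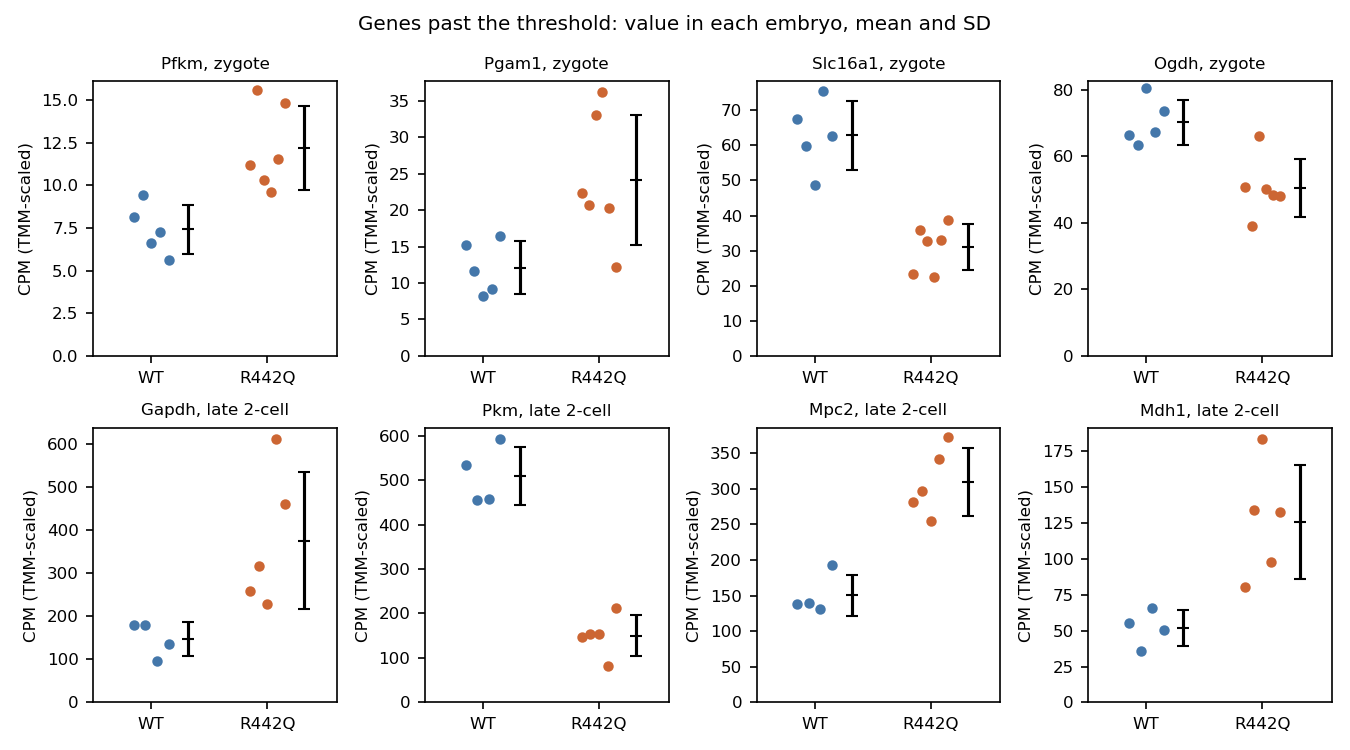
Each panel shows 1 called member, with points for single embryos in CPM, a bar for the mean and SD, and WT and R442Q side by side; the upper row is zygotes and the lower row late 2-cell embryos. Pkm in late 2-cell embryos ranges from 455 to 592 CPM in WT and 82.9 to 212 in R442Q, and Pgam1 and Ogdh overlap between the groups.

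In blastocysts, all cultured with the inhibitor, limma on log2(FPKM + 1) called 0 of the 34 members tested, beside a background of 0.00885% of the 11297 genes (1 gene). Aldoc and Ldhb were below the filter. An unadjusted p under 0.05 was reached by 4 members (11.8%), Idh2, Pdhb, Aldoa and Gapdh, each with a lower mean in R442Q, beside 7.40% of all genes. Idh2 had a lowest of 126, a median of 164 and a highest of 188 FPKM in the 7 WT and 53.4, 108 and 149 in the 7 R442Q blastocysts, which overlapped, and its difference was -0.74 ± 0.22 on the log2(FPKM + 1) scale (SE; limma adjusted p = 0.258). Gapdh had 925, 1268 and 1422 FPKM in WT and 523, 802 and 1464 in R442Q (-0.49 ± 0.22 SE; limma adjusted p = 0.634). Pdhb differed by -0.56 ± 0.24 and Aldoa by -0.43 ± 0.20 (limma adjusted p = 0.632 and 0.648).

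Of the 34 members 26 had a difference below 0 and 8 above, with a median of -0.29 beside -0.10 over all genes. Without R442Q blastocyst 7, the embryo with the fewest detected genes, the medians were -0.11 and 0.00, and with any other single embryo left out the members' median lay between -0.33 and -0.20. The 10 blastocyst markers summed to 3480 to 24454 FPKM in WT and 1478 to 12919 in R442Q, and all 10 had a mean of 1 FPKM or more in both. Among them the trophectoderm keratin Krt8 had 4158 ± 3549 FPKM (SD, n = 7) in WT and 2094 ± 1315 in R442Q, and the primitive endoderm factor Sox17 46.8 ± 65.6 and 10.9 ± 15.2, with overlapping groups. Their part in the members' values was not tested. No member had groups that were apart, beside 0.416% of all genes. These values do not show that the genotypes were alike: the standard error of a member's difference ran from 0.13 for Mdh2 to 1.16 for Ldha on the log2(FPKM + 1) scale. The X-linked members Pgk1 and Pdha1 differed by -0.28 ± 0.36 and -0.35 ± 0.22 (limma adjusted p = 0.908 and 0.795). Pkm, the member most plainly lower at the late 2-cell stage, had 73.5, 152 and 333 FPKM in WT and 15.5, 123 and 245 in R442Q blastocysts, a difference of -0.66 ± 0.54 (limma adjusted p = 0.848).

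**Figure D5:**
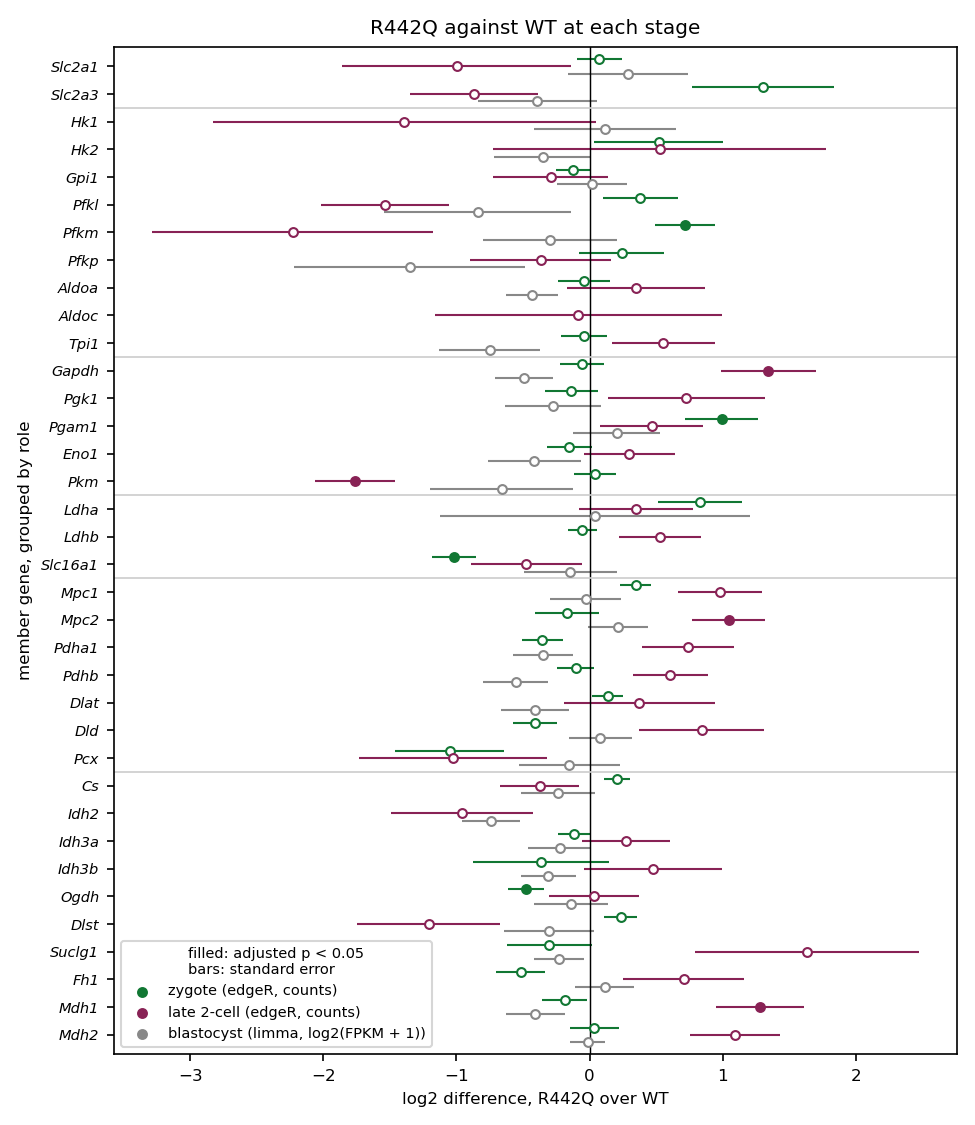
Rows are members and the horizontal axis is the log2 difference of R442Q over WT with its standard error, in counts for zygotes and late 2-cell embryos and in log2(FPKM + 1) for blastocysts; filled symbols have an adjusted p under 0.05. Zygotes and late 2-cell embryos have 4 filled symbols each and blastocysts none, and no member is filled at more than 1 stage.

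Whether the genotype difference itself changed from zygote to late 2-cell was tested as the interaction in the model of the 4 groups. It was called for 8 of the 36 members (22.2%), 3 toward higher (Gapdh, Mpc2 and Mdh1) and 5 toward lower values in R442Q (Slc2a3, Pfkl, Pfkm, Pkm and Dlst), beside 10.1% of all genes, 3.07% higher and 7.05% lower. The median over the members was 0.31 and over all genes -0.16. With size factors by relative log expression (RLE) in place of TMM, 8 were again called but 5 toward higher and 3 toward lower. The calls over all 16199 genes shifted the same way, from 497 higher and 1142 lower to 707 and 917. The median of all genes moved to -0.01, while that of the R442Q stage change moved from 0.22 to 0.34.

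Pkm had the smallest p of the members. It rose in WT embryos, with 329, 159, 226, 241 and 256 CPM in zygotes and 512, 445, 438 and 571 CPM in late 2-cell embryos (log2 1.02 ± 0.22 SE; edgeR adjusted p = 4.29e-04). In R442Q embryos it fell, from a lowest of 223, a median of 255 and a highest of 308 CPM to 134, 146, 146, 78.6 and 191 CPM (-0.88 ± 0.21 SE; edgeR adjusted p = 7.21e-04). The difference of these changes was -1.90 ± 0.30 (SE; edgeR adjusted p = 4.85e-04). Pfkm differed by -3.02 ± 0.82 (0.0201) and Mdh1 by 1.39 ± 0.35 (0.0132), and like Pkm they passed whichever embryo was left out. Mdh1 fell in WT, from 108 ± 12.9 (SD, n = 5) to 49.8 ± 11.7 CPM (SD, n = 4), and its change in R442Q, from 96.9 ± 24.8 (SD, n = 6) to 117 ± 38.2 CPM (SD, n = 5), did not pass (edgeR adjusted p = 0.308).

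Gapdh differed by 1.31 ± 0.37 (edgeR adjusted p = 0.0249), lost without WT late 2-cell embryo 4 (0.0503), and Mpc2 by 1.13 ± 0.34 (0.0359), lost without WT zygote 1, 3 or 4. Pfkl differed by -2.02 ± 0.56 (edgeR adjusted p = 0.0242) and was lost without WT zygote 2, R442Q zygote 1, 2, 5 or 6, WT late 2-cell embryo 1, 2 or 3 or R442Q late 2-cell embryo 4. Slc2a3 differed by -2.27 ± 0.69 (edgeR adjusted p = 0.0387) and passed only without WT zygote 5, WT late 2-cell embryo 1 or 4 or R442Q late 2-cell embryo 5. Dlst differed by -1.52 ± 0.47 (edgeR adjusted p = 0.0397) and passed only without WT late 2-cell embryo 1 or 4 or R442Q late 2-cell embryo 2 or 3. The RLE scaling ended the calls of both Slc2a3 (0.0545) and Dlst (0.0567), and leaving out the filter on low counts those of Slc2a3 (0.0543) and Mpc2 (0.0640).

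A list of 69 other genes of these pathways, drawn up with earlier results of the data known, was set beside the members. In zygotes 47 were tested and 9 called (19.1%), 3 higher and 6 lower in R442Q, beside 13.2% of all genes, 6.30% higher and 6.92% lower. Bpgm, which makes 2,3-bisphosphoglycerate, had 1558, 1700, 1368, 1686 and 1785 CPM in WT and a lowest of 637, a median of 929 and a highest of 1328 CPM in R442Q zygotes, without overlap (-0.75 ± 0.14 SE; edgeR adjusted p = 0.00317). The succinate dehydrogenase subunits Sdhc and Sdhd differed by -0.61 ± 0.13 and -0.68 ± 0.15 (edgeR adjusted p = 0.00463 and 0.00743). Lower too were Fbp1 (-0.54), a fructose bisphosphatase of gluconeogenesis, and Tigar (-0.52), which lowers fructose 2,6-bisphosphate. Pdp2 (1.42), Gpd2 (1.09) and Slc25a13 (0.62) were higher, the last encoding a mitochondrial aspartate-glutamate carrier. The 9th, Fbp2 (-0.91), fell outside the limit of 8 named genes and was added after its values were seen, and it passed only without WT zygote 3 or 4 or R442Q zygote 1 or 5. Bpgm, Sdhc, Sdhd and Pdp2 passed whichever zygote was left out. The call of Gpd2 was lost without WT zygote 1 or 5 or R442Q zygote 2 or 5, that of Fbp1 without WT zygote 3 or 5 or R442Q zygote 2 or 4, that of Tigar without WT zygote 1, 4 or 5 or R442Q zygote 2, 4 or 5, and that of Slc25a13 without WT zygote 2, 4 or 5 or R442Q zygote 1, 3 or 6. Gpd2 (limma adjusted p = 0.0867) and Slc25a13 (0.181) also missed the threshold with limma on log2(FPKM + 1), and Slc25a13 with the length and GC trend removed (edgeR adjusted p = 0.0503). In the model of both stages Pdp2 passed (edgeR adjusted p = 0.00772) and the other 7 named by the rule did not.

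At the late 2-cell stage 57 of the list were tested and 3 called (5.26%, near the 4.18% of all genes, of which 2.95% lower), all lower in R442Q: Pdp2, the pentose phosphate gene Pgd (-1.73 ± 0.41 SE; edgeR adjusted p = 0.0307) and the glucose transporter Slc2a8 (-2.11 ± 0.52; 0.0366). Pdp2 encodes a phosphatase that activates pyruvate dehydrogenase. It had 307, 546, 355 and 383 CPM in WT and 118, 119, 146, 120 and 145 CPM in R442Q late 2-cell embryos, groups far apart, and differed by -1.62 ± 0.27 (SE; edgeR adjusted p = 0.00971). In zygotes it had stood at 3.003, 8.16, 6.36, 5.70 and 3.32 CPM in WT and at a lowest of 8.66, a median of 14.1 and a highest of 19.4 CPM in R442Q, the opposite direction without overlap. Its rise between stages was 69.4-fold in WT and 8.04-fold in R442Q, an interaction of -3.11 ± 0.40 (SE; edgeR adjusted p = 4.91e-05). With the length and GC trend removed the late 2-cell differences of all 3 genes missed the threshold (edgeR adjusted p = 0.0845 for Pdp2, 0.0996 for Pgd and 0.174 for Slc2a8). Pgd passed only without R442Q late 2-cell embryo 3, 4 or 5, and Slc2a8 only without 3 or 4, and Slc2a8 was also lost in the model of both stages (0.0712).

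Over the stages, 24 of 59 tested genes of this list rose and 23 fell in WT, and 22 rose and 22 fell in R442Q. That is 79.7% and 74.6%, beside 61.2% of all genes in WT (36.2% higher and 25.0% lower) and 65.1% in R442Q (35.3% higher and 29.8% lower). The other pyruvate and TCA cycle genes, 15 in number, gave 11 falls and 1 rise in WT, among them Sdha (-3.17 ± 0.32 SE; edgeR adjusted p = 1.40e-08) and Me1 (-2.48 ± 0.18; 9.86e-11). Of 13 regulators of flux 7 rose and 3 fell in WT. The interaction was called for 6 of the 59 (10.2%, near the 10.1% of all genes), Pdp2, Pdpr, Pgd and Gpd2 toward lower and Sdhb and Got1 toward higher values in R442Q. In blastocysts limma called 0 of 49, with 1 at an unadjusted p under 0.05 (2.04%, beside 7.40% of all genes).

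Several members share sequence with other annotated genes, which limits how their reads can be placed. The share of 50-base stretches of their transcripts that occurs in another annotated gene was 53.9% for Pgk1, 36.2% for Pgam1, 25.99% for Eno1, 25.8% for Pkm, 24.7% for Gapdh and 21.0% for Ldhb, and their values are uncertain to that extent. For Pkm the largest part, 12.1%, was shared with Gm49759, which overlaps it on its own strand. Pfkm had 8.83%, shared with Gm26513, which also overlaps it on its own strand. Slc16a1, Ogdh and Mdh1 had 0 and Mpc2 0.122%. Among the genes called for genotype, Mdh1 overlaps Wdpcp, Pfkm overlaps Senp1 and Gapdh overlaps Iffo1 on the opposite strand, and the counting is not stated to use strand, so reads of such neighbours cannot be told apart. Pkm, Slc16a1, Mpc2, Mdh1 and Pfkm overlap predicted gene models on their own strand.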

How the data were processed

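Libraries were made from 34 single embryos, and each group and replicate number was read from the sample title. The authors deposited estimated counts per gene symbol for zygotes and late 2-cell embryos, of which 75.4% and 71.7% of values above 0 were whole numbers, and FPKM for all 3 stages. RSEM and the build mm10 are named in the submitters' processing notes, without version or role, and the annotation and the use of strand are not given in the sources used here. No 2 libraries held identical values.

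Counts were rounded to whole numbers and fitted over all genes in R 4.3.3 with edgeR 4.0.16 (TMM, filterByExpr with a minimum count of 10, quasi-likelihood test), each stage alone for the genotype and both stages in a model of 4 groups for stage changes and the interaction. Standard errors were derived from the log2 fold change and its F statistic. Blastocyst FPKM was tested with limma 3.58.1 on log2(FPKM + 1), with a variance trend, keeping genes that reached an FPKM of 1 in 7 or more of the 14 embryos. This scale understates changes of low genes. Adjusted p-values are Benjamini-Hochberg over all genes tested. Alternatives were DESeq2 1.42.0, RLE factors, no filter, limma on FPKM, a length and GC correction by offsets, a replicate block, other pseudocounts and scalings, and leaving out each embryo. CPM and FPKM are shares of a library, not amounts per embryo, and intervals from counts cover counting error only.

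All called members were named, with the 5 largest rises and falls between stages and both or all isozymes of a family among the members. Up to 8 other pathway genes per comparison were named by p. The members and lists were chosen with earlier results of these data known. Positions are from GENCODE M21 (GRCm38), in which 98.4% of the zygote and late 2-cell symbols and 92.1% of the blastocyst symbols occurred, and promoter sequences from RefSeq on GRCm38.p6.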

Additional observations from a re-analysis of the deposited data

Results flagged for a closer look

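The change of the genotype difference between zygote and late 2-cell passed the threshold for 8 members by the edgeR interaction test in the main fit. On the log2 scale it was -2.27 for Slc2a3 (edgeR adjusted p = 0.0387), -2.02 for Pfkl (0.0242), -3.02 for Pfkm (0.0201), 1.31 for Gapdh (0.0249), -1.90 for Pkm (4.85e-04), 1.13 for Mpc2 (0.0359), -1.52 for Dlst (0.0397) and 1.39 for Mdh1 (0.0132). Only Pkm, Pfkm and Mdh1 passed whichever embryo was left out. Slc2a3, Pfkl and Dlst were called for genotype at neither stage alone, and Slc2a3 and Dlst were lost with RLE factors.

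A single embryo stood apart from its group by Dixon's gap criterion in 7 of 65 groups of values. The criterion flags about 1 in 20 groups when values are normal and independent. All flagged values but that of Mpc2 were shares bounded at 0 and 100%, so no excess was read from the 7. Mpc2 in WT late 2-cell embryo 4 was at 193 CPM against 131 to 139 in the other 3, and thus nearest to the R442Q embryos. The Hk2 share of Hk1 and Hk2 was 90.4% in WT blastocyst 2, below the others of its group. The Pfkp share of phosphofructokinase was 53.1% in WT zygote 3, above the others. Aldoa made up 76.5% of aldolase in R442Q late 2-cell embryo 1 and 99.5% in R442Q blastocyst 5, the lowest of their groups. The Ldhb share of Ldha and Ldhb was 64.3% in WT blastocyst 6, where both genes summed to 0.14 FPKM. In R442Q blastocyst 6 it was 11.1%, and they summed to 14.8 FPKM.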

How the results depend on the processing

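The members called for genotype, stage (the 5 largest changes each way) or interaction, the named pathway genes called for genotype by the rule and the 4 blastocyst members at an unadjusted p under 0.05 kept their sign under each alternative run. Other differences near 0 did not: that of Pkm in zygotes was 0.04, -0.06 with limma on log2(FPKM + 1), -0.09 without WT zygote 2 and -0.02 without R442Q zygote 5. The number of members called in zygotes went from 4 to 0 in the model of both stages and ranged from 1 (without WT zygote 3) to 6 (without R442Q zygote 3) when each embryo was left out, with 2 without WT zygote 4 or 5 or R442Q zygote 1, 2, 5 or 6. At the late 2-cell stage it went from 4 to 7 with DESeq2, 2 with the length and GC trend removed and 9 in the model of both stages, and from 1 (without any 1 of the WT embryos, or R442Q embryo 2 or 5) to 5 (without R442Q embryo 3) over single embryos left out, with 2 without R442Q embryo 1 or 4. The interaction gave 14 members with DESeq2 in place of 8, and 5 (without WT zygote 1, 2, 3 or 4, R442Q zygote 5 or 6 or WT late 2-cell embryo 3) to 11 (without R442Q late 2-cell embryo 3) over single embryos left out. The stage change stayed at 22 to 25 members in WT and 23 to 25 in R442Q, and blastocysts at 0 with limma under all 20 alternatives run. Over all genes, the zygote calls went from 1643 to 270 in the model of both stages. Leaving out WT zygote 3 gave 649 higher and 721 lower, and leaving out R442Q zygote 3 gave 781 and 937. With any single zygote left out, 535 to 781 genes were called higher and 590 to 937 lower, of 12136 to 12783 tested. Interaction calls over all genes went from 497 higher and 1142 lower to 1136 and 1310 with DESeq2. They were 419 and 670 without WT zygote 2, and 1029 and 1282 without R442Q late 2-cell embryo 3. With any single embryo left out they ran from 368 to 1029 higher and 670 to 1282 lower, of 15809 to 16943 genes tested. The stage change in those runs gave 5295 to 5767 genes higher and 3775 to 4574 lower in WT. In R442Q it gave 5374 to 5841 higher and 4609 to 4998 lower. With DESeq2 the stage change gave 5969 and 4488 in WT and 6148 and 4805 in R442Q. The late 2-cell calls went from 580 to 1664 with DESeq2, 889 without a filter, 204 with the length and GC trend removed, 2507 in the model of both stages and 142 (without WT embryo 2) to 891 (without R442Q embryo 3) over single embryos left out, and the 1 blastocyst call went to 30 without WT blastocyst 7.

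Replicate numbers, read from the titles, were shared across genotypes, but embryos with the same title number did not deviate together. The correlations ran from -0.17 to 0.21, and 1 of 5 zygote numbers, 1 of 4 late 2-cell numbers and 2 of 7 blastocyst numbers correlated best with their own. The title numbers were therefore not treated as pairs. The submitters' descriptions number the WT zygotes and some late 2-cell embryos of both genotypes otherwise, and pairing by those numbers was not tested. With a replicate block by title number the members called were 3 in zygotes, 0 at the late 2-cell stage (49 genes in all), 23 for either stage change, 3 for the interaction and 0 in blastocysts. With the block and the length and GC correction together they were 0 at the late 2-cell stage (13 genes in all). With the block alone, 563 genes were called higher and 642 lower of the 12157 tested in zygotes. For the interaction it was 273 higher and 812 lower of 16199. The stage change gave 5432 higher and 3910 lower in WT, and 5050 and 4805 in R442Q. Depth limits Hk1, Aldoc and Idh2 in zygotes, which were not tested there.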
